A study of Solanum lycopersicum with 12 samples.

Results

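The transcript response of tomato seedlings to 24 h of flg22 was described from 4 arrays, 2 of flg22 24 h and 2 of control 24 h, out of 12 arrays in the series. The members were the arrays whose labels give flg22 or no treatment at 24 h. Seedlings of Solanum lycopersicum, 15 days old, were moved to liquid MS medium and given flg22 at 1 µM, whereas the control seedlings received no peptide. Each array measured RNA from 1 pool of 2 whole seedlings, and the series design states that its experiments used different plants. The sample labels describe the control as water, while the methods describe a mixture of LB and MS, and LB is not mentioned for flg22. Peptide and medium can therefore not be told apart if the methods hold for these arrays. The other arrays held flg22 6 h, control 6 h, and the cell-free culture filtrate (CFCF) of Bacillus amyloliquefaciens MBI600 at both times, and they entered the fit to estimate the spread. No cultivar is given in the sources used here.

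As background, flg22 is a conserved stretch of bacterial flagellin that plants perceive at the cell surface through the receptor kinase FLS2 and a co-receptor of the SERK family. Perception is followed by an oxidative burst, calcium influx and MAP kinase activation, and later by transcription of genes of the jasmonate, ethylene and salicylate branches, of pathogenesis-related (PR) proteins, and of phenolic compounds. Pattern-triggered immunity of this kind is also known to slow the growth of seedlings.

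Values are the deposited log2 signals of the green (Cy3) channel, which carried the seedling sample, after background correction and quantile normalization. A difference of 1 is a doubling, and levels are not compared between probes. Between 72.9% and 81.7% of the 43803 spots were well above background on the 4 arrays, and no spot was saturated. Leaf tissue was represented on flg22 and control arrays: 19 of 19 photosynthesis genes were well above background on all 4. Of the root uptake genes, the phosphate transporter PT1, the potassium channel LKT1, the ammonium transporter AMT1-2 and the nitrate transporter NRT2.2 were above background on all 4 arrays, and PT2 on 1 flg22 array and no control array. Of 6 reproductive markers, AG1, AGL11, PG2, E8 and LAT52 were above background on no array and LAT59 on 1 control array.

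Replicates 1 of both groups lay on slide 1 and replicates 2 on slide 2. The flg22 replicates correlated at 0.970, the lowest of the 6 groups, and differed by 1 or more in 6.95% of probes, against 0.988 and 1.25% for the controls. Lower green correlations occurred between other arrays, such as 0.957 between MBI600 CFCF 24 h replicate 1 and MBI600 CFCF 6 h replicate 2. The flg22 24 h replicate 1 array was closer to some arrays of other groups than to its own replicate. Its green signal correlated at 0.970 with its own replicate but at 0.978 with the control of its slide, 0.985 with control 6 h replicate 2 and 0.988 with MBI600 CFCF 24 h replicate 2. What the red channel held is not stated. On this array it correlated at 0.990 to 0.992 with the others of slide 1, which correlated among themselves at 0.998. With the arrays of slide 3 it ran from 0.986 (MBI600 CFCF 24 h replicate 2) to 0.995 (control 6 h replicate 2). Against the control of slide 1 the red signal of this array differed by 1 or more for 167 probes, compared with 1 probe between the pair on slide 2. The red mean difference reached at most 0.607 among the probes that differed most in green.

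Few probes passed the test at 24 h, and the largest differences were mostly toward higher signal with flg22. Of 43603 probes, 1 was called (0.00229%). A call needed a log2 fold change of 2 or more in size and an adjusted p below 0.1 in limma's moderated test on all 12 arrays, after Benjamini-Hochberg adjustment. Counting the log2 fold change only, 88 probes (0.202%) reached it, 77 higher (0.177%) and 11 lower (0.0252%) with flg22, which is 87.5% higher (exact 95% interval 78.7% to 93.6%, counting error only). The interval takes probes as independent, although they share the 4 arrays and some share a gene, so it does not measure the spread between seedlings. These 88 probes represented 71 sequence names, and 35 of them matched 23 genes, 19 higher and 4 lower. A weaker rule, a log2 fold change of 1 with an unadjusted p under 0.05, took 600 probes (1.38%), 414 higher (0.949%) and 186 lower (0.427%). All 88 had flg22 arrays on one side of both control arrays, as did 30.9% of all probes. The median over all probes was -0.01. On the processed signals of the scanner with 75th percentile scaling, 321 of 438 probes past 2 were higher (73.3%), and leaving out flg22 24 h replicate 2 gave 69.2%. Leaving out the flg22 24 h replicate 1 array gave 5 called probes, all higher, and leaving out flg22 24 h replicate 2 gave 3, of which 1 was higher. Leaving out control replicate 1 or control replicate 2 gave 0. When the 4 arrays were fitted alone with the slide as a block, 68 probes were called, 57 of them higher, and 357 had an adjusted p under 0.1, 248 higher (0.569%) and 109 lower (0.25%). This fit has 1 residual degree of freedom and leans on the spread of other probes. With the slide as a block on all 12 arrays, 2 were called. In bulk seedlings, a change in the share of a tissue and a change in RNA per cell cannot be told apart.

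The called probe, A_96_P085004, carries the sequence name AK248063 and matched no gene in the table used here. Its signal was 10.34 and 10.59 on the flg22 arrays, against 7.53 and 7.25 on the control arrays. Both flg22 values were above both controls by a wide margin, with a log2 fold change of 3.07 ± 0.29 (SE) and an adjusted p of 0.0589 by limma. The within-slide differences were 2.81 on slide 1 and 3.33 on slide 2. Of the other probes under an adjusted p of 0.1 (4 probes, 0.00917%), 2 belonged to Lemir, a miraculin-like protein of the Kunitz inhibitor family. Lemir measured 12.77 and 12.65 with flg22 and 10.89 and 10.91 in controls, so that it rose by 1.81 ± 0.16 (SE, adjusted p 0.0535 by limma). Its second probe passing the test, at 11.54 and 11.71 with flg22 and 9.88 and 10.13 in controls, gave 1.62 ± 0.14. The Lemir replicates nearly coincided in both groups. The remaining probe under this threshold, and the only one that fell, was A_96_P062426 (sequence name AK325488, no gene matched), with 9.17 and 8.98 on flg22 arrays and 10.84 and 10.97 on control arrays, a change of -1.83 ± 0.17 (SE, adjusted p 0.0589 by limma).

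The named genes with the largest upward differences included proteins known from the wound response of tomato. mcpi, an inhibitor of metallocarboxypeptidases, measured 10.29 and 9.57 on the flg22 arrays, against 6.28 and 6.29 on the control arrays. Its control values lay close together near the low end of the signal range, and the log2 fold change was 3.64 ± 0.86 (SE). It was 5.71 with the processed signal and 4.32 with offset 16 in background correction. LAPA1, the wound-induced leucine aminopeptidase A, had 11.80 and 10.17 with flg22 and 7.88 and 6.94 in controls. TD2, a threonine deaminase known for acting in the gut of feeding insects, had 11.21 and 8.96 with flg22 and 6.91 and 6.28 in controls. In both genes the array on slide 1 was the higher of each pair, so that the spread within groups ran with the slide, and the log2 fold changes were 3.57 ± 1.02 and 3.49 ± 1.19 (SE). NAOD, N-acetylornithine deacetylase, measured 10.61 and 10.25 in flg22 seedlings and 7.31 and 6.72 in control seedlings. CEVI57, first described as induced by a viroid, had 9.27 and 10.01 with flg22, against 6.65 and 6.65 in controls. These groups were far apart relative to their spread, at 3.41 ± 0.60 for NAOD and 2.99 ± 0.38 for CEVI57. None of the 5 genes passed the test on all 12 arrays (adjusted p 0.144 to 0.663 by limma), whereas all passed with the slide pairs of the 4 arrays alone (adjusted p 0.0373 to 0.0821). The genes were picked for their size on these same arrays, where slide pairs placed 2.33% of all genes as higher. Probes of a gene disagreed in size: the 3 other probes of LAPA1 gave 0.10 to 0.99 and the 6 others of TD2 gave 1.23 to 3.52. The 2 other probes of NAOD gave 0.54 and 1.64, and the other probe of CEVI57 gave 1.63. LAPA1 and LAPA2 are close copies, and the share of each in a probe's signal was not tested.

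PR proteins and genes of ethylene were also among the highest. PR1b1, a basic PR-1 protein and a common marker of salicylate signalling, had 11.91 and 13.78 on the flg22 arrays, against 10.05 and 9.41 on the control arrays. Its log2 fold change was 3.12 ± 0.84 (SE), and all 5 other probes of PR1b1 were also higher, by 0.74 to 2.72. CHI3, an acidic chitinase, measured 12.28 and 12.91 with flg22 and 10.08 and 10.48 in controls, a difference of 2.31 ± 0.38. ACO1, the ACC oxidase of the last step of ethylene synthesis, had 8.92 and 11.00 with flg22 and 7.70 and 7.63 in controls. The flg22 values of ACO1 were over 2 units apart while its controls nearly coincided, and its log2 fold change was 2.30 ± 0.54, with 3.34 without flg22 replicate 1 and 1.26 without flg22 replicate 2. ER24, an ethylene-responsive coactivator of the MBF1 family, measured 11.81 and 10.58 with flg22, against 8.70 and 8.77 in controls (2.46 ± 0.75). The remaining genes of the 12 highest were TPP3 at 2.82 ± 0.54, and at 4.42 with the processed signal, ODD at 2.58 ± 0.74 and CHRDi at 2.38 ± 0.86. Groups without overlap were a condition for being named. Over the 12 genes the adjusted p ran from 0.144 to 0.716 on all 12 arrays by limma, and with slide pairs PR1b1 (0.159) and ACO1 (0.194) were the ones that did not pass. That result too follows a choice of genes on the same 4 arrays. The inhibitor of cathepsin D, cathDInh, was singled out after its values were seen because neither control array was above background: it had 7.55 and 8.26 with flg22 and 6.18 and 5.71 in controls, at least 3.57-fold higher (adjusted p 0.447 by limma). That bound sets the controls at the lowest signal among probes well above background on the array, or at the probe's own signal where higher.

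**Figure D1:**
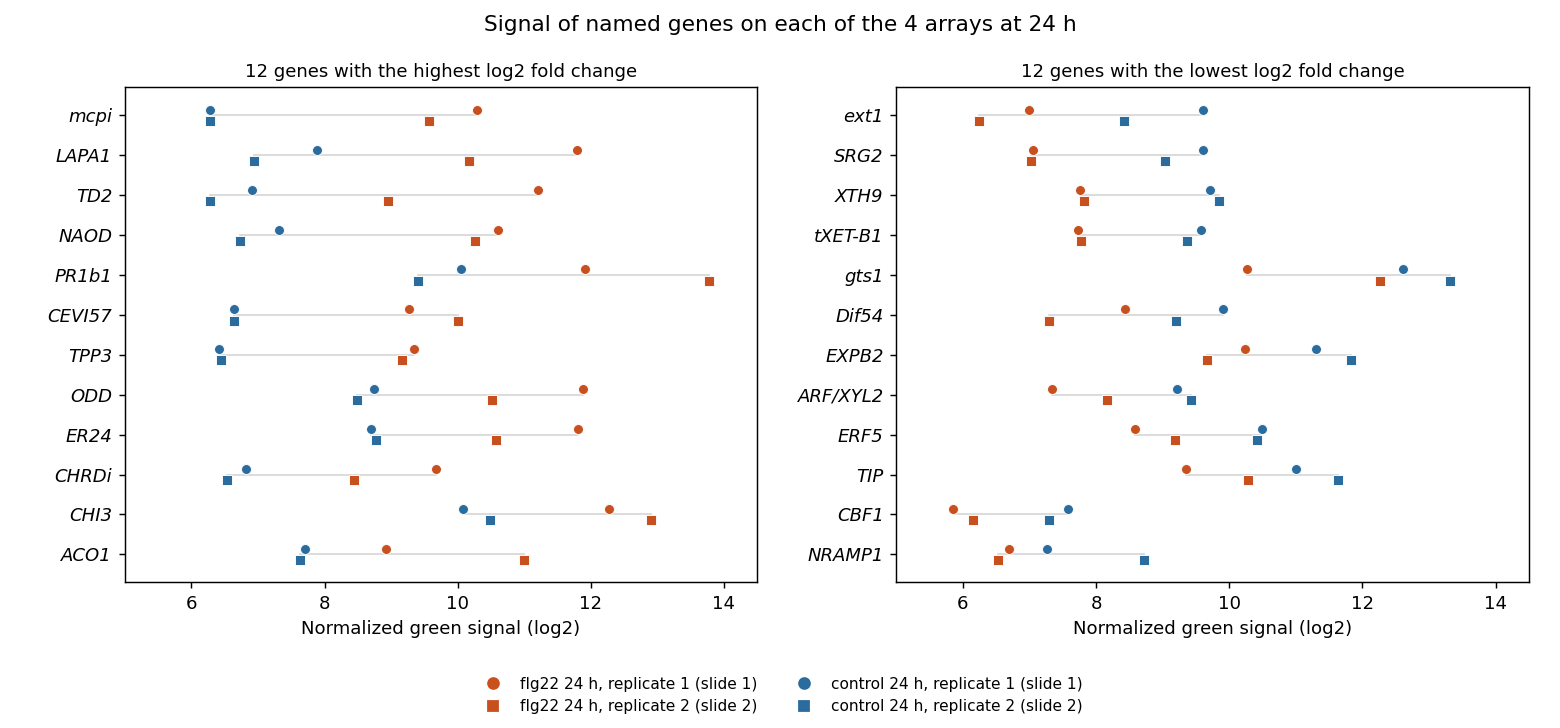
Normalized green signal (log2) of the 12 genes with the highest and the 12 with the lowest log2 fold change, with 1 symbol per array: orange for flg22 24 h, blue for control 24 h, circles for replicate 1 on slide 1 and squares for replicate 2 on slide 2. The genes were chosen so that both orange symbols lie on one side of both blue symbols, and the gap is widest for mcpi and narrowest for gts1.

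Of the 12 lowest named genes, ext1 and XTH9 were matched to the cell wall list. ext1 measured 7.0 and 6.24 on flg22 arrays and 9.60 and 8.42 on control arrays, a log2 fold change of -2.39 ± 0.68 (SE), and of -3.95 with the processed signal. The 2 other probes of ext1 gave -1.13 and -0.54. XTH9 and tXET-B1 encode enzymes that cut and rejoin xyloglucan as walls loosen. XTH9 had 7.76 and 7.82 with flg22 and 9.71 and 9.85 in controls (-1.99 ± 0.32), while its other probe gave -0.56. tXET-B1, which was not matched to that list by symbol, had 7.72 and 7.77 with flg22 and 9.58 and 9.36 in controls (-1.72 ± 0.25). The replicates of both lay close together, so the gap between groups was many times the spread, yet the adjusted p on all 12 arrays was 0.194 and 0.165 by limma. A further gene that carries XTH9 as a synonym, LOC543916, was at 7.83 and 7.98 with flg22 and 10.04 and 10.06 in controls (-2.14 ± 0.33), and cross-hybridization between it and XTH9 was not tested. EXPB2, a beta-expansin, differed by -1.61 ± 0.73, and ARF/XYL2, an arabinofuranosidase and xylosidase of wall polymers, by -1.57 ± 0.33. The other probe of EXPB2 gave -1.77 and that of ARF/XYL2 -0.23.

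ERF5, an ethylene response factor, had 8.59 and 9.19 in flg22 seedlings, against 10.50 and 10.41 in control seedlings (-1.57 ± 0.42). CBF1, a regulator of cold-responsive genes, had 5.85 and 6.15 with flg22, where it was above background on 1 of 2 arrays, and 7.57 and 7.29 in controls (-1.43 ± 0.35, and -3.93 with the processed signal or -2.15 with offset 16). The tonoplast water channel TIP (synonym RB7) was lower by 1.50 ± 0.34 and the metal transporter NRAMP1 by 1.39 ± 0.43 on the log2 scale, with NRAMP1 at -0.66 without control replicate 2 and -2.12 without control replicate 1. SRG2, gts1 and Dif54 differed by -2.29 ± 0.59, -1.70 ± 0.60 and -1.69 ± 0.67. For gts1, at 10.27 and 12.26 on flg22 arrays and 12.61 and 13.32 on control arrays, leaving out flg22 replicate 1 gave -0.70 and leaving out flg22 replicate 2 gave -2.70, and for Dif54 the same steps gave -2.26 and -1.13. With slide pairs, 9 of these 12 genes had an adjusted p under 0.1 by limma, the exceptions being gts1 (0.159), EXPB2 (0.143) and NRAMP1 (0.257). The 12 were picked on the same arrays, where slide pairs placed 0.941% of all genes as lower. Beside the genes, the 2 probes without a gene that differed most upward were A_96_P090049 (sequence name TA36834_4081), with 12.87 and 11.10 on flg22 arrays and 8.60 and 7.56 on control arrays, and A_96_P090754 (GO373353), with 14.02 and 12.80 on flg22 arrays and 9.69 and 9.43 on control arrays. The 2 that differed most downward were A_96_P160236 (AW625109), at 6.60 and 6.24 with flg22 and 10.17 and 9.22 in controls, and A_96_P161731 (AK322756), at 6.28 and 6.56 with flg22 and 8.80 and 9.35 in controls.

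Gene lists were compared with all 2232 genes matched, each by 1 probe. Of all genes, 51.7% were higher with flg22, 21.5% were higher without overlap of the groups and 18.9% lower without overlap, and the median log2 fold change was 0.01. At a log2 fold change of at least 1, 4.84% were higher and 1.52% lower, and at 2 or more 0.806% and 0.179%. The slide pairs placed 2.33% of genes as higher and 0.941% as lower at an adjusted p under 0.1, whereas on all 12 arrays only Lemir passed (0.0448%). No member of any list passed the test on all 12 arrays with limma, so that all list values are descriptions, while 73 of 397 members (18.4%) and 290 of all genes (13.0%) had an unadjusted p under 0.05. Scaling to the 75th percentile in place of quantiles moved the median of all genes to 0.10 and that of all probes to 0.20, and list medians shift with it. Members named beyond the 4 with the largest differences in a list were chosen after their values were seen, for their place in a pathway.

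Of 23 genes of phenylpropanoid and amine synthesis on the array, 20 were higher and 3 lower, 16 were higher without overlap and 3 lower without overlap, and the median was 0.70, or 0.57 to 0.81 under the scalings and single arrays left out. The slide pairs gave 5 higher and 0 lower. Enzymes at the entry of the pathway had steady differences: PAL5, phenylalanine ammonia-lyase, measured 14.77 and 14.74 with flg22 and 13.68 and 13.67 in controls (1.08 ± 0.36, SE), and 4CL, which activates coumarate, measured 12.27 and 12.39 with flg22 and 11.09 and 11.16 in controls (1.2 ± 0.41). Replicates of PAL5 and 4CL lay close together within each group. Along the flavonoid branch, CHS1, a chalcone synthase, had 12.16 and 11.41 with flg22 and 9.64 and 10.17 in controls (1.88 ± 0.68). The other probe of CHS1 gave 0.59. CHS2 (1.16), the chalcone isomerase CHI1 (0.79), F3H (0.76) and DFR (0.91) were all higher without overlap, as was MYB12 (1.14, and 0.27 by its other probe), a regulator of flavonols. The aromatic amino acid decarboxylases AADC1A and AADC2 differed by 1.45 ± 0.56 and 1.43 ± 0.48, and the peroxidases cevi16 and TAP2 by 1.48 ± 0.33 and 0.98 ± 0.18. The 2 other probes of AADC1A gave 0.08 and 0.78, and those of cevi16 gave 1.41 and 2.14. Lower members were the tyramine transferases THT7-1 (-0.99) and THT1-4 (-0.54) and the peroxidase TPX2 (-0.64).

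PR proteins and salicylate genes had 10 of 16 higher, 8 of them without overlap, 6 lower, 2 of those without overlap, and a median of 0.65. This list depended on the slide: its median was 0.01 on slide 1 and 1.07 on slide 2, and leaving out flg22 replicate 1 or replicate 2 gave 1.02 or 0.03. With the processed signal it was 1.15, and in 6 of 10 settings it lay above the median of phenylpropanoids and amines. The chitinases CHI3, CHI14 and CHI9 were at 2.31, 1.62 and 1.15, with CHI14 at 3.13 on the processed signal. TPM-1, of the thaumatin-like PR-5 family, had 14.01 and 14.10 on flg22 arrays and 12.08 and 11.93 on control arrays. With a log2 fold change of 2.05 ± 0.27 (SE) and an adjusted p of 0.144 by limma, it had the smallest p of the list. PR-P2 differed by 1.47 (0.82 to 2.12 with 1 array left out), PR-1a1 by 1.25 and NP24-I by 1.03. P69A and SBT1, subtilisin-like proteases, were lower without overlap, at -0.41 and -0.79.

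Of 27 genes in the jasmonate and wound list, 19 were higher and 8 lower, 13 were higher without overlap and 1 lower without overlap, and the median was 0.16. Beside TD2 and CEVI57, DES, the divinyl ether synthase, had 10.84 and 11.23 with flg22 and 9.66 and 8.99 in controls (1.71 ± 0.59, SE). opr2, an oxophytodienoate reductase, had 11.29 and 10.90 with flg22 and 9.79 and 9.94 in controls (1.23 ± 0.38). The jasmonate synthesis enzymes AOS, AOC and OPR3 were at 0.12, -0.12 and 0.34, AOS and OPR3 without overlap, and the receptor COI1 was at 0.04. JA2, a NAC factor, differed by 0.86 ± 0.35.

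Ethylene genes were spread around a low median of 0.15, with 32 of 45 higher and 13 lower, and 16 higher and 5 lower without overlap. Without flg22 replicate 1 the median was 0.04, with 25 higher and 20 lower. ACS2, an ACC synthase, was at 1.22 ± 0.52 and ER24 at 2.46 ± 0.75, whereas ERF5 was at -1.57 ± 0.42. The 2 other probes of ACS2 gave 0.26 and 0.40, the other probe of ER24 2.01 and that of ERF5 -1.32. The receptors ETR4 and ETR2 were at 0.56 and -0.51. In the list of pattern-triggered immunity (PTI) signalling the median was 0.02: 13 of 25 were higher and 12 lower, 4 higher and 3 lower without overlap. Eix1, a receptor-like protein for a fungal xylanase, was at 1.06 ± 0.47 (0.70 to 1.43 with 1 array left out), and the co-receptor gene SERK3A and the kinase gene MPK3 were at -0.03 and -0.05.

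The growth hormone list and the cell wall list lay on the low side. Of 38 genes of auxin, gibberellin, cytokinin and brassinosteroid, 27 were lower and 11 higher, 16 lower and 5 higher without overlap, with a median of -0.16. With 75th percentile scaling, 22 were lower and 16 higher (median -0.11). Gibberellin genes were among the lower ones: GA3ox1, an enzyme of the last step of synthesis, had 6.28 and 6.42 with flg22 and 7.43 and 7.20 in controls (-0.97 ± 0.17, SE), 3OH-2 was at -0.92, and the gene that carries gast1, named for its stimulation by gibberellin, as a synonym (LOC101248254) was at -1.43, with -0.68 without flg22 replicate 1 and -2.18 without flg22 replicate 2. The auxin repressors IAA19, IAA27 and IAA7, the lowest IAA genes of the list, were at -0.68, -0.59 and -0.48. IAA2, IAA3, IAA12 and IAA15 were higher, at 0.36, 0.14, 0.10 and 0.17, and the remaining IAA genes were lower. Of 36 wall genes, 22 were lower and 14 higher, 10 lower and 5 higher without overlap, and the median was -0.09. With 75th percentile scaling, 19 wall genes were lower and 17 higher (median -0.03), and without flg22 replicate 2 also 19 and 17 (median -0.09). Besides ext1 and XTH9, the proline-rich protein TPRP-F1 (-1.07) and the expansin EXP5 (-0.95) were lower without overlap. Slide pairs gave 4 wall genes lower and 0 higher, and 0 growth hormone genes either way.

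Of the other lists, redox and detoxification (16 genes, median 0.17, and -0.02 without flg22 replicate 2) held AOX1a, the alternative oxidase of mitochondria, at 10.48 and 10.85 with flg22 and 8.70 and 8.78 in controls (1.92 ± 0.62), and a glutathione peroxidase gene with the synonym GPX at 1.92 ± 0.42. Photosynthesis had 8 of 19 genes higher and 11 lower, 4 higher and 1 lower without overlap (median -0.04). That median turned to 0.12 without flg22 replicate 1, to 0.12 with the processed signal and to 0.20 with the green to red ratio. Cell cycle had 4 of 14 higher and 10 lower (median -0.14). Abscisic acid and water stress (17 genes, median 0.10, 0.53 with the processed signal and 0.02 without flg22 replicate 1) held NAC1 at 1.49 ± 0.66 and TIP and CBF1 at the low end. The 2 other probes of NAC1 gave 0.40 and 0.56. Isoprenoids (27 genes, median 0.10) held GAME1, a glycosyltransferase of steroidal alkaloids, at 1.14 ± 0.29 (0.70 to 1.58 with 1 array left out) and GGPS2 at -1.13 ± 0.18. Sugar and nutrient transport (29 genes, median 0.13, and 0.01 without flg22 replicate 2) held the hexose transporter HT2 at 1.52 ± 0.48 and the ammonium transporter AMT1-1 at 1.1 ± 0.35. Heat shock (10 genes, median 0.17) held hsc70.3 at 1.30 ± 0.31 and HSP90 at 1.19 ± 0.40 (0.50 to 1.88 with 1 array left out). The other probe of hsc70.3 gave 1.05, and the 2 others of HSP90 gave 0.21 and 0.24. In the developmental factors (35 genes, median -0.01, and 0.26 with 75th percentile scaling), 10 were above background on no array, and THM16, a MYB factor, was at 1.09 ± 0.13 (adjusted p 0.12 by limma). The genes usually taken as references did not sit at 0: 7 of 10 were lower, the median was -0.38 and ran from -0.66 to -0.12 over the scalings and single arrays left out, ubi3 was at -0.70 with 13.04 and 13.85 on flg22 arrays and 14.19 and 14.11 on control arrays, and TUB was at -0.78.

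**Figure D2:**
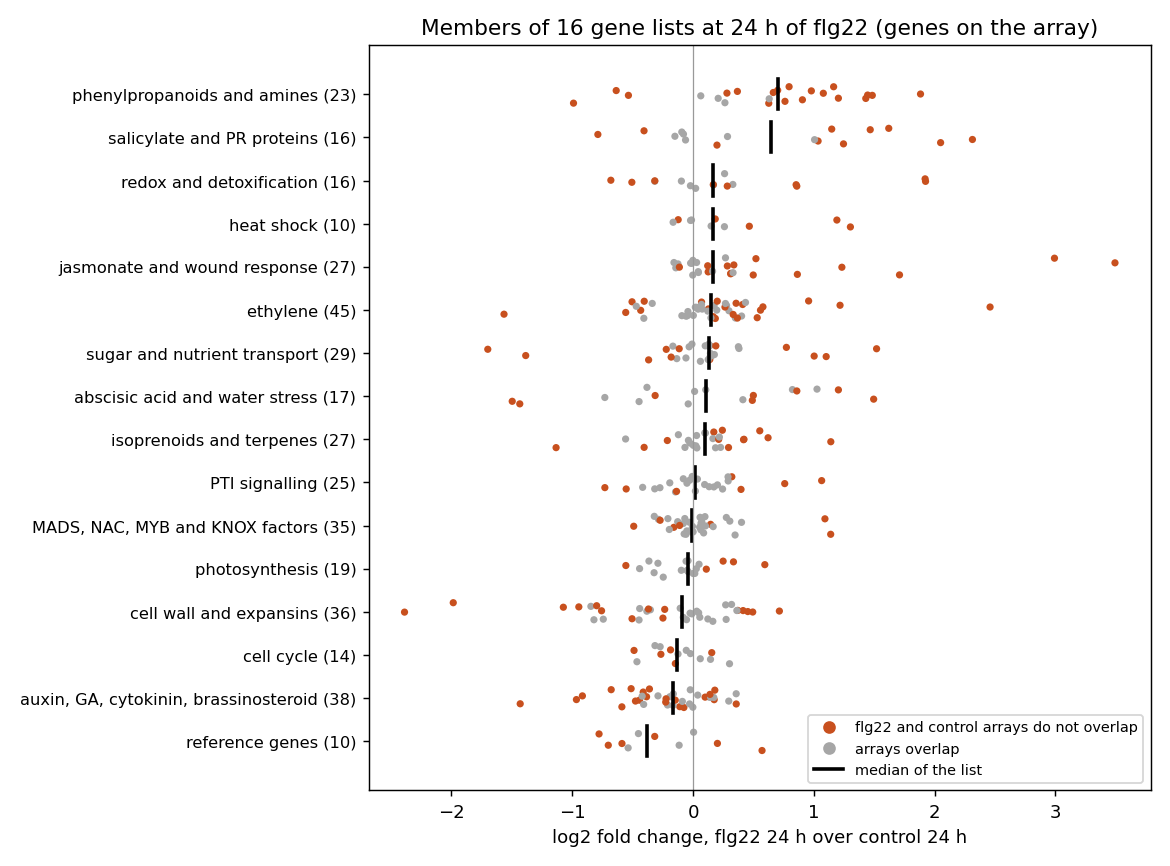
Log2 fold change of flg22 24 h over control 24 h for the members of 16 gene lists, ordered by median (black bars), with the number of genes on the array in brackets. Orange points are genes whose flg22 arrays both lie on one side of both control arrays, grey points the others; medians run from 0.70 for phenylpropanoids and amines to -0.38 for reference genes.

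The 8 genes that the study followed by RT-qPCR as defence markers included ERF1, a name that several genes in the table carry, so that 7 were matched. By 1 probe each, all 7 were higher with flg22, 6 of them without overlap, as were 21.5% of all genes, and the median was 0.51. Pti5, an ERF factor that binds the Pto kinase, had 7.75 and 8.44 on flg22 arrays and 6.29 and 6.22 on control arrays (1.84 ± 0.42, SE, and 3.64 with the processed signal). loxD, a lipoxygenase of jasmonate synthesis, had 11.11 and 10.86 with flg22 and 9.81 and 9.80 in controls (1.18 ± 0.40). The 4 other probes of loxD gave 0.11 to 1.45. EDS1, a regulator upstream of salicylate, was at 0.51 ± 0.16, APX1, ascorbate peroxidase, at 0.32 ± 0.28, and MYC2, the jasmonate transcription factor, at 0.12 ± 0.15. NPR1, the salicylate co-activator, was at 0.27 ± 0.19 with overlapping groups, 9.62 and 9.27 with flg22 and 9.27 and 9.08 in controls. The other probe of NPR1 gave -0.038 and that of APX1 0.12. Pti5 and loxD passed with slide pairs (adjusted p 0.0844 for each), the other 5 did not, and none of the 7 passed on all 12 arrays. The genes that the study selected on these arrays are not independent evidence of their direction. Of 18 names searched for them, 6 were matched: TD2, LAPA1 and ACO1 as above, P69B at 1.17 ± 0.90, LAPA2 at 0.28 ± 0.15 and cevi19 at -0.45 ± 0.26. LAPA1 and LAPA2 were both searched for the gene the study calls lapA. The remaining names, among them Pin2, DrTi and ParA, matched no single gene on the array.

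The within-slide differences show how much each pair of arrays gave. The 88 probes were chosen on the mean of both slides, so that a shared direction is largely fixed by that choice. Of the 88 probes past a log2 fold change of 2, 87 differed by 1 or more in the same direction on both slides, 44 by 2 or more on both, 23 by 2 or more on slide 1 only and 21 on slide 2 only. Over all probes, 269 were higher by 1 or more and 90 lower by 1 or more on both slides, and 4 went opposite ways. The balance differed: on slide 1, 747 probes were higher and 956 lower by 1 or more (43.9% higher), and on slide 2, 592 were higher and 196 lower (75.1% higher). The slide 1 values rest on the flg22 24 h replicate 1 array, whose red signal departed from that of the others on its slide. In green it was closer to some arrays of other groups than to its replicate, and its part in the balance was not tested.

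The genes with the largest gap between slides, singled out after their values were seen, included PR-related proteins. The subtilisin-like protease P69B had 8.17 and 11.29 on the flg22 arrays, against 8.87 and 8.25 on the control arrays, so that it differed by -0.70 on slide 1 and 3.04 on slide 2. Its relative p69c differed by -0.31 on slide 1 and 2.32 on slide 2, and the lipid transfer protein 7k-LTP by -0.67 on slide 1 and 2.58 on slide 2. PR1b1 (1.86 on slide 1 and 4.37 on slide 2), TSI-1 (0.54 on slide 1 and 2.99 on slide 2) and ACO1 (1.23 on slide 1 and 3.37 on slide 2) were higher on both slides, with the larger difference on slide 2. In the opposite direction, LysRS differed by 2.67 on slide 1 and -0.07 on slide 2, HSP90 by 1.97 on slide 1 and 0.41 on slide 2 and TD2 by 4.30 on slide 1 and 2.68 on slide 2. TAS14, a dehydrin, differed by 0.53 on slide 1 and -1.42 on slide 2. With a single pair per slide, these gaps have no replicate check.

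**Figure D3:**
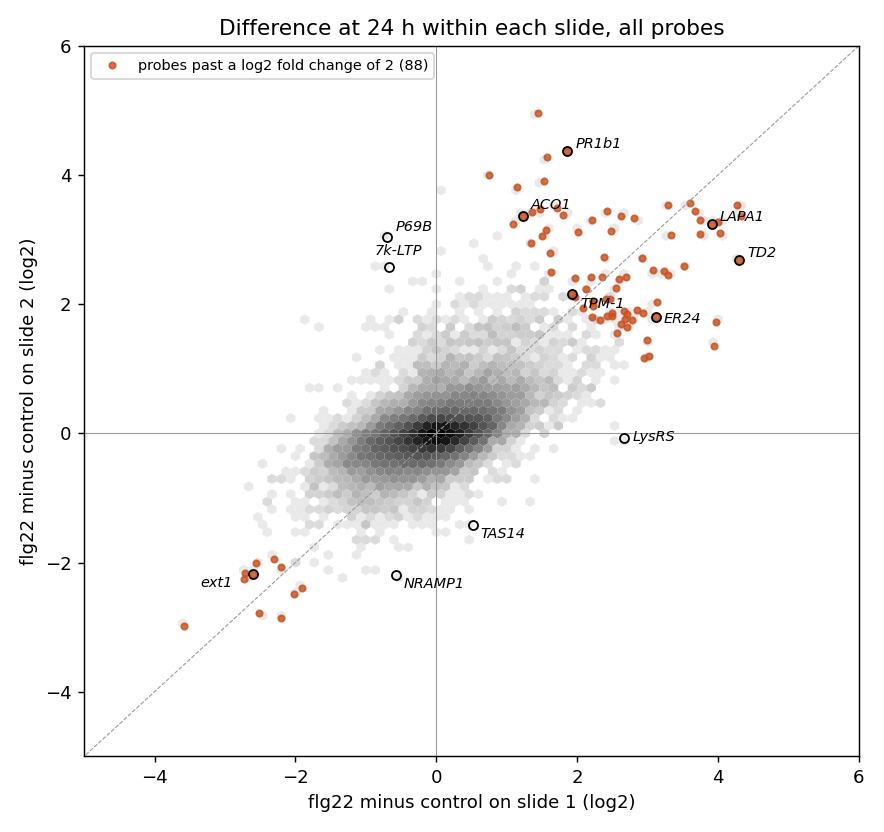
Difference of flg22 24 h minus control 24 h (log2) on slide 1 (x axis) and slide 2 (y axis) for all 43603 probes (grey, darker where denser), with the 88 probes past a log2 fold change of 2 in orange and 12 genes circled; the dashed line marks equal differences. The orange probes lie in the upper right or lower left, while P69B and 7k-LTP lie above 2 on slide 2 and below 0 on slide 1.

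The 24 h effect was set against the effect of flg22 at 6 h, which has control arrays of its own. At 6 h, flg22 replicate 1 lay on slide 1 and control replicate 1 on slide 2, with both replicates 2 on slide 3. Part of the 6 h effect is therefore a difference between slides, unlike the 24 h effect, and slide and time cannot be fully told apart. The difference between both effects passed the test for 1 probe of 43603 (0.00229%, adjusted p under 0.1 and a difference of at least 2), A_96_P248982 (sequence name EG553821, no gene matched). Its effect was 0.12 at 24 h, with 6.07 and 6.04 on flg22 arrays and 5.97 and 5.89 on control arrays, against 2.39 at 6 h, with 8.11 and 8.41 on flg22 arrays and 5.80 and 5.95 on control arrays. The difference was -2.26 ± 0.18 (SE, adjusted p 0.0528 by limma), and the call was lost with the replicate block (smallest adjusted p 0.109) and with the slide block (0.178). The probe was above background on 1 flg22 array at 24 h, on both at 6 h and on no control array, so that the sizes against controls are not measured folds: at 6 h the signal with flg22 was at least 4.9-fold higher, and for 24 h no fold is given. A difference of at least 2 without the test was reached by 24 probes with the larger value at 24 h (0.055%) and 96 with the larger value at 6 h (0.22%), 120 in all. That count was 822 with the processed signal, of which 382 had the larger value at 24 h, and 231 without flg22 24 h replicate 2, of which 59 did.

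The genes highest at 24 h split by their value at 6 h. Some had smaller differences at 24 h than at 6 h. LAPA1 was at 3.57 ± 1.02 at 24 h and 6.30 ± 1.02 at 6 h (SE), TD2 at 3.49 ± 1.19 and 5.74 ± 1.19, and CEVI57 at 2.99 ± 0.38 and 5.28 ± 0.38. mcpi (3.64 at 24 h, 4.78 at 6 h) and NAOD (3.41 at 24 h, 4.45 at 6 h) ran the same way, and the difference of effects was -2.29 ± 0.53 for CEVI57 (adjusted p 1.0 by limma). Others were near 0 at 6 h: ER24 was at 2.46 at 24 h and 0.28 at 6 h, and ODD at 2.58 and 0.32. So were AOX1a at 1.92 and 0.10, and CHS1 at 1.88 and 0.22, which are not among the 12 highest. Values in between also occurred: the called probe A_96_P085004 was at 3.07 at 24 h and 1.22 at 6 h, and Lemir at 1.81 and 1.40. PR1b1 was at 3.12 ± 0.84 at 24 h and 0.96 ± 0.84 at 6 h. Among the lower genes, SRG2 was at -2.29 ± 0.59 at 24 h and 0.95 ± 0.59 at 6 h, and ERF5 at -1.57 ± 0.42 and 0.64 ± 0.42. None of these differences of effects passed the test, and an adjusted p near 1 does not show that both times were alike. By list, the jasmonate and wound median was 0.16 at 24 h and 0.74 at 6 h, and that of phenylpropanoids and amines 0.70 at 24 h and 0.75 at 6 h.

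**Figure D4:**
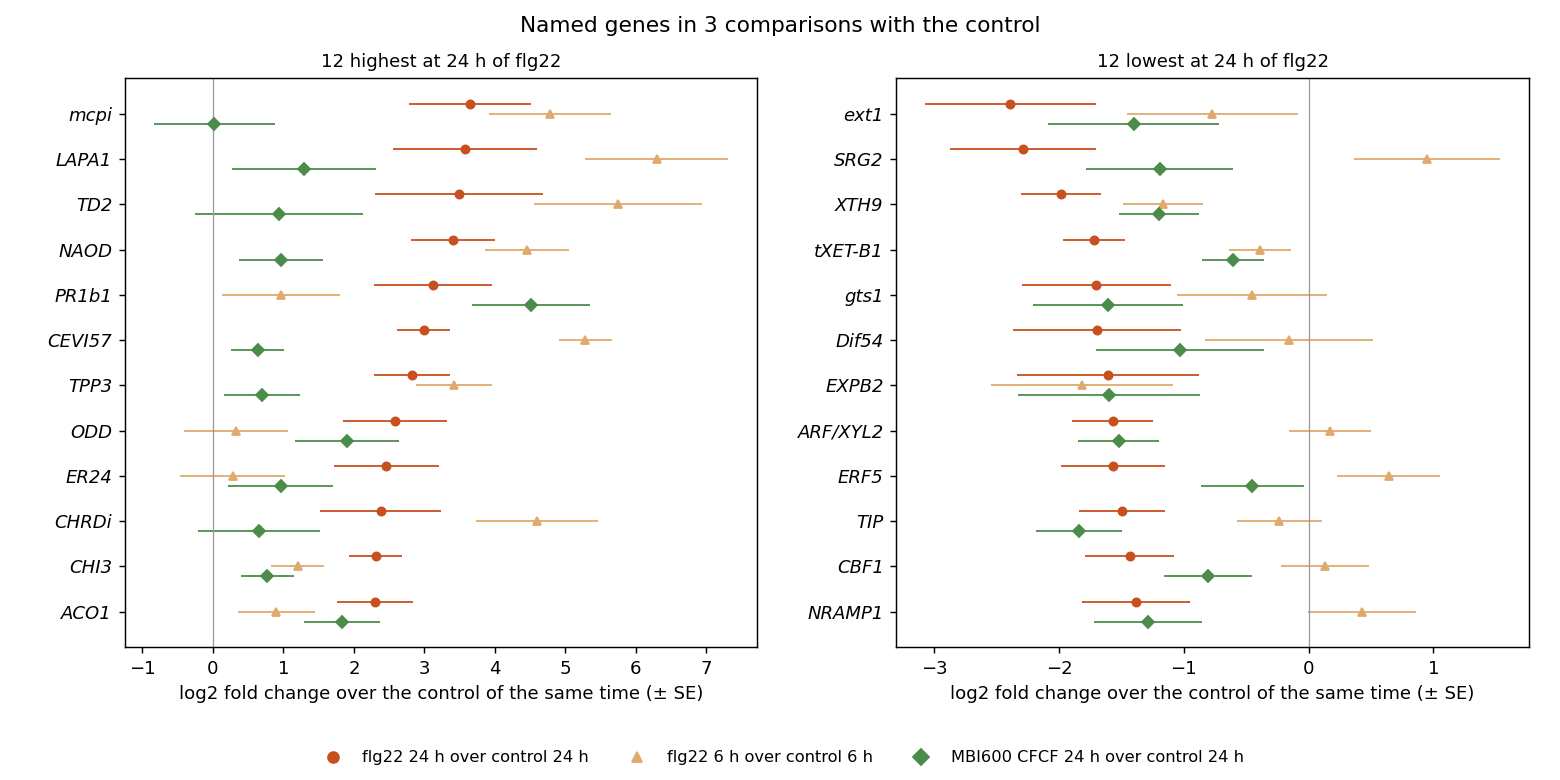
Log2 fold change over the control of the same time, with SE bars from limma, of the 12 highest and 12 lowest named genes: orange circles for flg22 24 h, light triangles for flg22 6 h and green diamonds for MBI600 CFCF 24 h, the first and last of which share their control arrays. LAPA1, TD2 and CEVI57 have their largest value at flg22 6 h, PR1b1 its largest with MBI600 CFCF, and SRG2 lies at -2.29 for flg22 24 h and 0.95 for flg22 6 h.

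Against MBI600 CFCF at 24 h, which is compared directly and without the controls, 3 probes passed the test (0.00688%), 1 higher and 2 lower with flg22, and none matched a gene. Both replicates 1 lay on slide 1, whereas flg22 replicate 2 lay on slide 2 and MBI600 CFCF replicate 2 on slide 3. By the methods the filtrate came from a bacterial culture and flg22 was added as a peptide. Treatment and culture medium can therefore not be told apart in this comparison either. The higher one, A_96_P119457 (sequence name TA54915_4081), had 9.16 and 9.01 with flg22 and 6.57 and 7.23 with MBI600 CFCF, a difference of 2.19 ± 0.20 (SE, adjusted p 0.0558 by limma). A_96_P083829 (AK247942) had 6.30 and 7.12 with flg22 and 11.26 and 10.44 with MBI600 CFCF, a difference of -4.14 ± 0.30 (adjusted p 0.0324). A_96_P128967 (AA824719) had 6.20 and 6.70 with flg22, where it was above background on 1 of 2 arrays, and 8.90 and 8.33 with MBI600 CFCF, a difference of -2.16 ± 0.22 (adjusted p 0.0961). With the slide as a block none of the 3 passed. Differences of at least 2 were reached by 41 probes higher (0.094%) and 7 lower (0.0161%) with flg22, 48 in all. That count was 295 with the processed signal, 165 of them higher, 97 with the slide block, 85 of them higher, and with 1 array left out it ran from 35 (without MBI600 CFCF replicate 1) to 108 (without flg22 replicate 1).

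Named genes are given side by side for both treatments, which share the control 24 h arrays. The genes mcpi, LAPA1, TD2, NAOD and CEVI57 were at 3.64, 3.57, 3.49, 3.41 and 2.99 with flg22 and at 0.02, 1.29, 0.94, 0.96 and 0.63 with MBI600 CFCF. For mcpi the direct difference was 3.63 ± 0.86 (SE, adjusted p 0.998 by limma), with 10.29 and 9.57 on the flg22 arrays and 6.20 and 6.41 on the MBI600 CFCF arrays, which do not overlap. PR1b1 was at 3.12 with flg22 and 4.51 with MBI600 CFCF, P69B at 1.17 and 2.42, and PR-1a1 at 1.25 and -0.61. Of the lower genes, TIP was at -1.50 with flg22 and -1.84 with MBI600 CFCF, and EXPB2 at -1.61 and -1.60. None of these genes passed the direct test.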

How the data were processed

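Dual-colour Agilent tomato arrays (12 arrays on 3 slides, 4 arrays per slide) were used as single channel. The deposited table holds log2 values of the green channel, which the authors made with limma by normexp background correction at offset 50 and quantile normalization; recomputing it from the deposited scanner intensity files (Feature Extraction 10.7.3.1) gave differences of at most 5e-09. Raw green and red intensity values, as deposited by the authors, served the alternatives, the background calls and the check of the red channel.

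The 43603 probes were fitted in limma 3.58.1 (R 4.3.3) on all 12 arrays and 6 groups, p-values were adjusted by Benjamini-Hochberg over all probes, and a call required both thresholds (0.1 and 2), which the methods join with "or". Columns of other series in the table numbered 0. The methods call the array replicates independent biological replicates, and do not say whether the 2 of a group came from separate experiments. With 2 arrays per group the precision is limited. At 24 h the replicate numbers of flg22 and control follow the slide (correlation of deviations 0.665), while MBI600 CFCF replicate 2 lay on slide 3. The correlation for other group pairs, most of which do not share slides in both replicates, ran from -0.512 to 0.441. The slide block was therefore an alternative.

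Probes were named through a RefSeq gene table (assembly SLM_r2.1, names only): 4884 probes matched 2232 of 41476 genes, and the probe with the highest mean signal stood for a gene. Named were the 12 highest and 12 lowest genes with a symbol and without group overlap, called probes, the 2 highest and 2 lowest unmatched probes, and members of 18 lists. Members and lists were chosen with earlier results of these data known. The fit was tested on simulated data. Alternatives were other background corrections and scalings, the green to red ratio, filters, blocks, and leaving out each array. SE values come from limma, and a list's counts and median are descriptions.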

Additional observations from a re-analysis of the deposited data

Results flagged for a closer look

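For 5 named genes, all arrays of flg22 moved one way from the controls at 24 h and the opposite way at 6 h, and this difference between times was not established by a test, since no interaction passed. At 24 h alone, 21.5% of all genes were higher and 18.9% lower without overlap. The share of all genes that reversed between times was not computed, so the 5 have no background to be set against. SRG2 had an effect at 24 h that was lower than at 6 h by a difference of -3.23, and cevi19 by -0.82. LE25, hsc70.3 and MYB12 were lower than controls at 6 h and higher at 24 h, with differences of 2.46, 1.91 and 1.2. The probe A_96_P248982, without a matched gene, had a tested difference of -2.26 between its effects at 24 h and 6 h (adjusted p 0.0528 by limma), a call that was lost with the replicate block (0.109) and the slide block (0.178). No control array was above background for it. No explanation was tested for these 6 values.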

How the results depend on the processing

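The count of called probes at 24 h, 1 in the reported fit, was 45 with the scanner's processed signal, 23 with offset 16, 0 with 75th percentile scaling, 6 with the green to red ratio, 6 with only probes well above background, 3 with the replicate block, 2 with the slide as a block, 0 with the 4 arrays alone, 68 with these and the block, and 23 with a trended, robust prior. Other thresholds gave 4 (adjusted p alone), 88 (log2 fold change alone) and 600 (a log2 fold change of 1 with unadjusted p). Without 1 array it ran from 0 (either control array) to 5 (without flg22 replicate 1). The share of large differences that were higher, 87.5%, was 73.3% with the processed signal and ran from 69.2% (without flg22 replicate 2) to 85.8% (without flg22 replicate 1). The difference between times, 1 probe, gave 0 with the processed signal, 0 with either block and 5 with the trended prior, and from 0 to 18 without 1 array, the highest without flg22 6 h replicate 2; leaving out arrays at 6 h was chosen after seeing the data. The count against MBI600 CFCF, 3 probes, was 1 with the processed signal, 1 with the replicate block and 0 with the slide block, and ran from 0 (without MBI600 CFCF replicate 1) to 7 (without MBI600 CFCF replicate 2). The cause was not tested. Of 1056 values of 66 named genes and probes under alternatives, 1055 kept their direction: P69B took the opposite sign, -0.39, when flg22 replicate 2 was left out, and 2.72 when replicate 1 was. Much of this was fixed in advance. The filter, the blocks, the fit of the 4 arrays alone and the trended prior leave the log2 fold change unchanged. Leaving out 1 array cannot reverse a gene whose groups do not overlap. Of 85 values from other probes of a gene, 5 had the opposite sign: NPR1 (-0.038), LAPA2 (-0.13, -0.19 and -0.034) and cevi19 (0.055). The block on the 4 arrays placed 42 of the 66 under an adjusted p of 0.1 by limma, against 4 in the reported fit. Over all probes, this block placed 357 of 43603 there. Most of the 66 were picked for their differences on the same 4 arrays, so their count is no independent support. Replicate numbers did not pair the samples throughout: deviations of flg22 24 h and control 24 h correlated at 0.665, those of other group pairs at -0.512 to 0.441. The signal over background limits dim genes such as CBF1 and cathDInh.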
